A study of Danio rerio with 9 samples.

Results

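The genes described here encode laminins, nidogens, fibronectins, perlecan and integrins, the main glycoproteins of basement membranes and the receptors through which cells hold on to them. They were taken as all gene symbols of the deposited tables that begin with lama, lamb or lamc and a digit, nid and a digit, fn1, hspg2, itga or itgb, which gave 48 of 22337 genes. Of these, 5 encode laminin alpha chains, 5 laminin beta chains, 2 laminin gamma chains, 3 nidogens, 2 fibronectins, 1 perlecan, 16 integrin alpha chains and 12 integrin beta chains. The remaining 2, itgb1bp1 and itgbl1, are no receptor chains: the first encodes a protein that binds the inner tail of beta1 integrins, the second a secreted protein with repeats like those of integrin beta chains. A filter on low counts left 47 for testing, and only nid2b, with 2 to 13 counts per embryo, fell out.

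RNA had been sequenced from 9 single zebrafish embryos, 4 with normal eyes (embryos 3, 4, 6 and 7) and 5 with coloboma (embryos 3, 4, 5, 6 and 7), a gap in the eye where the choroid fissure has not closed. Both groups came from the same cross, in which each parent carried zic2aGBT133/+ and zic2bUW1127/+, were kept at 29 °C, received no treatment and were collected at about 25 hours post fertilization. The sources used here give no genotype for any single embryo, so coloboma stands for an eye phenotype and not for a known zic2 genotype. Total counts ran from 40951722 to 54681474 in the normal and from 20461180 (embryo 5) to 59233104 in the coloboma embryos, and the 48 genes took 0.285% to 0.337% of them. Among lists of cell type markers, all but 1 lens gene had a value above 0 in each embryo, and coloboma embryo 3 had a summed lens marker level of 53.7 TPM against 1009 to 2235 TPM in the other 8 embryos. The log2 values of 7 of the 8 lens markers were positive (median 0.26), but none of these had an unadjusted p under 0.05 (edgeR). The other marker, cryaa, was at -1.38 (unadjusted p = 0.0452 by edgeR).

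Laminins are cross-shaped trimers of an alpha, a beta and a gamma chain that polymerise on cell surfaces and found the basement membrane. Nidogens and perlecan bind laminin to the collagen IV network, while fibronectin forms fibrils in the looser matrix around mesenchyme, somites and early heart. Integrins are pairs of an alpha and a beta chain that bind these proteins outside the cell and connect them through talin and kindlin to actin inside it. In the eye a basement membrane surrounds the optic cup and lens and lines the margins of the choroid fissure, and zebrafish without the laminin alpha1 chain form misshapen eyes.

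Levels were compared between genes in TPM (transcript abundance corrected for transcript length and scaled to a fixed total), and the same gene was compared between embryos in CPM (counts relative to library size, scaled by TMM for library composition). Below, the 4 values of the normal embryos are in the order 3, 4, 6 and 7, and the 5 values of the coloboma embryos in the order 3, 4, 5, 6 and 7. Mean TPM over the 9 embryos was at least 1 for 44 of the 48 genes, at least 10 for 27, at least 50 for 5 and at least 100 for 1.

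The transcripts of laminin-111, the trimer of alpha1, beta1 and gamma1 that is the chief laminin of early embryos, were uneven in level. The beta1 chain gene lamb1a had the highest level of the 48 genes, 118 ± 5.45 TPM (SD) over the 4 normal and 112 ± 8.003 TPM (SD) over the 5 coloboma embryos. The gamma1 chain gene lamc1 was next, at 88.97 ± 3.69 TPM (SD) over the 4 normal and 93.4 ± 4.66 TPM (SD) over the 5 coloboma embryos, and took 92.6% ± 0.198 of the summed gamma chain TPM in the 4 normal and 94.96% ± 0.650 in the 5 coloboma embryos (SD). Alpha chain transcripts were spread over 4 genes, with lama5 at 36.1 ± 4.38 TPM (SD) over the 4 normal and 35.5 ± 1.78 TPM (SD) over the 5 coloboma embryos, lama4 at 22.4 ± 1.56 TPM (SD) over the 4 normal and 23.3 ± 2.83 TPM (SD) over the 5 coloboma embryos, lama2 at 20.7 ± 7.93 TPM (SD) over the 4 normal and 29.99 ± 12.7 TPM (SD) over the 5 coloboma embryos and lama1 at 18.1 ± 3.69 TPM (SD) over the 4 normal and 17.1 ± 1.91 TPM (SD) over the 5 coloboma embryos. In the normal embryos the SD ranges of lama4, lama2 and lama1 overlapped and their order differed between embryos, so that it was not resolved. In the coloboma embryos lama4 and lama1 did not overlap within 1 SD. The alpha3 chain gene lama3 lay at 0.318 ± 0.136 TPM (SD, n = 4) and 0.328 ± 0.0522 TPM (SD, n = 5).

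Among the other matrix genes nid2a was the highest, at 79.02 ± 6.23 TPM (SD) over the 4 normal and 76.5 ± 7.36 TPM (SD) over the 5 coloboma embryos, and nid1a followed at 54.7 ± 4.67 TPM (SD) over the 4 normal and 68.9 ± 12.8 TPM (SD) over the 5 coloboma embryos. Both fibronectin genes were lower per length, with fn1a at 26.96 ± 2.51 TPM (SD) over the 4 normal and 29.4 ± 2.33 TPM (SD) over the 5 coloboma embryos and fn1b at 20.2 ± 5.47 TPM (SD) over the 4 normal and 32.6 ± 7.32 TPM (SD) over the 5 coloboma embryos, and perlecan (hspg2) stood at 16.9 ± 1.18 TPM (SD) over the 4 normal and 20.5 ± 3.23 TPM (SD) over the 5 coloboma embryos. The integrin chain with the highest level was the beta1 gene itgb1b (74.3 ± 2.37 TPM (SD) over the 4 normal and 70.4 ± 6.11 TPM (SD) over the 5 coloboma embryos). It was followed by itgav, the alpha chain of fibronectin and vitronectin receptors (44.3 ± 4.73 TPM (SD) over the 4 normal and 39.7 ± 3.12 TPM (SD) over the 5 coloboma embryos), the neighbour of itgb1b, itgb1b.1 (38.5 ± 6.58 TPM (SD) over the 4 normal and 40.5 ± 1.28 TPM (SD) over the 5 coloboma embryos), and itga6b, an alpha chain of laminin receptors (32.6 ± 6.02 TPM (SD) over the 4 normal and 37.3 ± 1.43 TPM (SD) over the 5 coloboma embryos). The SD ranges of itgav and itgb1b.1 overlapped in both groups. Within single embryos itgav was the higher in all 4 normal embryos, while in the coloboma embryos the order of these genes differed between embryos. At the other end stood the leukocyte chains itgb2 and itgb7, the alpha chain gene itga6l and the collagen receptor chain itga11b, with mean TPM over all embryos of 1.90, 1.22, 0.534 and 0.256. The genes itgb1b, itgb1b.1 and itgb1b.2 lie side by side in the current RefSeq annotation, as do lamb2 and lamb2l, and reads shared between such copies are divided by a model, so their single levels are less certain.

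**Figure D1:**
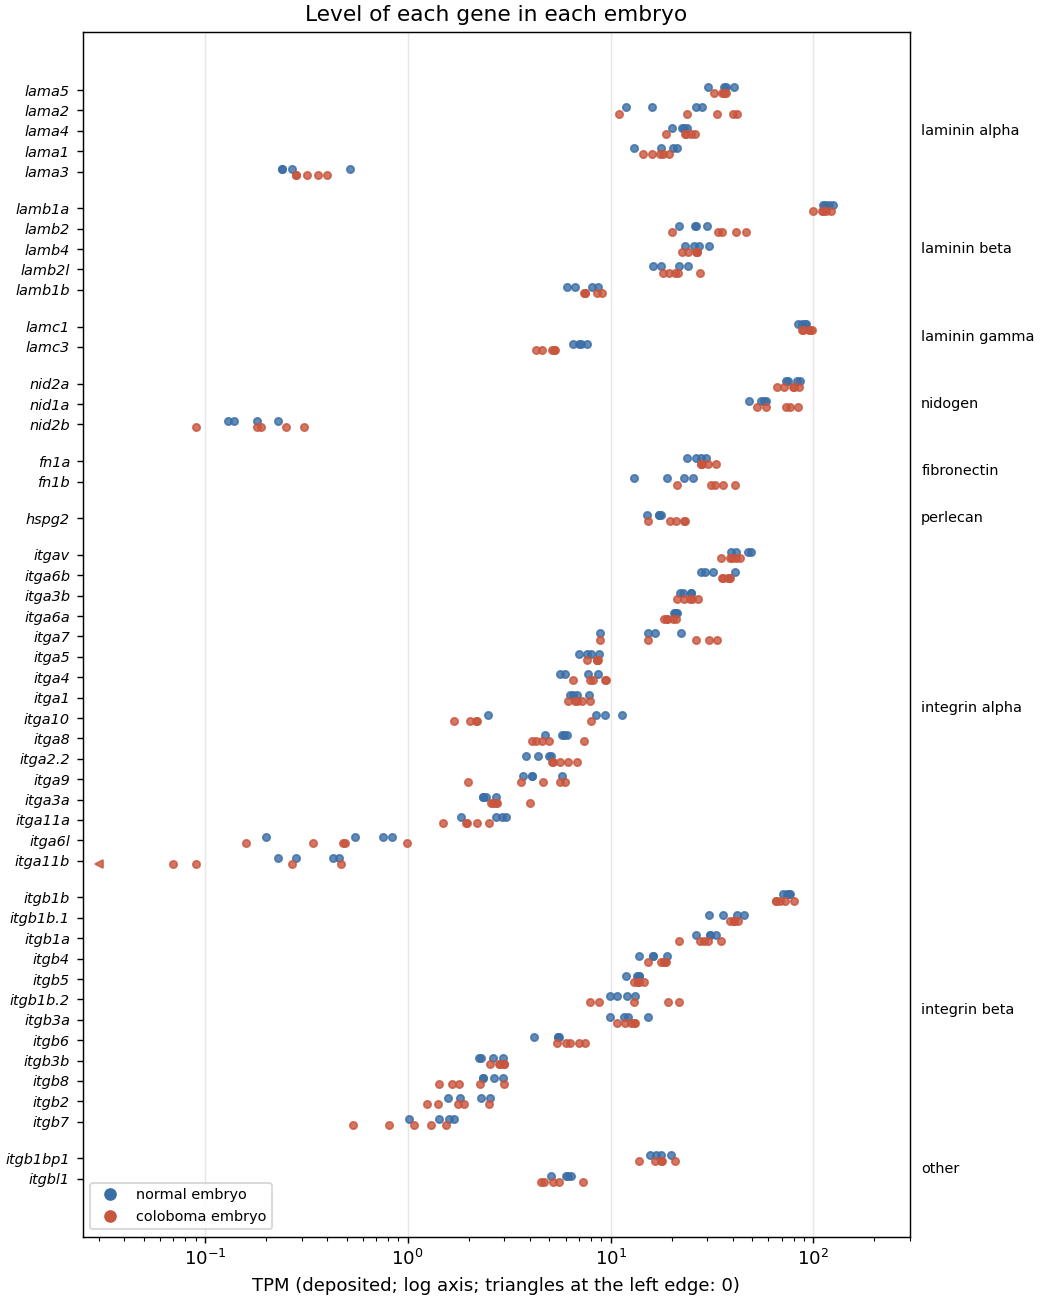
Deposited TPM of each of the 48 genes in each embryo, on a log axis, grouped by protein class and ordered within a class by mean level. Points are single embryos, blue for normal and red for coloboma, and lamb1a, lamc1, nid2a, itgb1b and nid1a have a mean above 50 TPM.

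The comparison asked whether matrix and adhesion genes differ between embryos with and without coloboma. With the quasi-likelihood test of edgeR and a threshold of 0.05 on p adjusted over all genes (Benjamini-Hochberg), none of the 47 passed. Of all 21293 genes tested 44 passed (0.207%), 17 of them higher (0.0798%) and 27 lower (0.127%) in coloboma embryos. Limma voom and limma on log2 TPM also called 0 of the 47. DESeq2 called 1, lamc3, but it also called 574 of all 21293 genes. At an unadjusted p under 0.05 there were 11 genes (23.4% of the 47), where 11.7% of all genes tested had such a p. Of these, 8 had positive values (17.0%, against 6.78% of all genes) and 3 negative ones (6.38%, against 4.9%). The CPM ranges of the groups did not overlap for 3 genes (6.38%), against 4.43% of all genes tested. Over the 47 genes the log2 fold change, coloboma minus normal, was positive for 33 and negative for 14, with a median of 0.11, while over all genes tested 49.9% were negative and the median was 0.00. The split depended on the scaling, with 20 of the 47 negative by library size alone and 21 on both log2 TPM scales. The median over all genes was also lower there, at -0.08 by library size, -0.06 with log2(TPM + 1) and -0.08 with log2(TPM + 0.1). The medians of the 47 were 0.03, 0.02 and 0.03 in the same order. The genes are co-expressed and were not counted as independent, so these shares are a description. Without normal embryo 6 only 5 genes had an unadjusted p under 0.05, and without coloboma embryo 6 there were 6, as there were with log2 TPM.

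**Figure D2:**
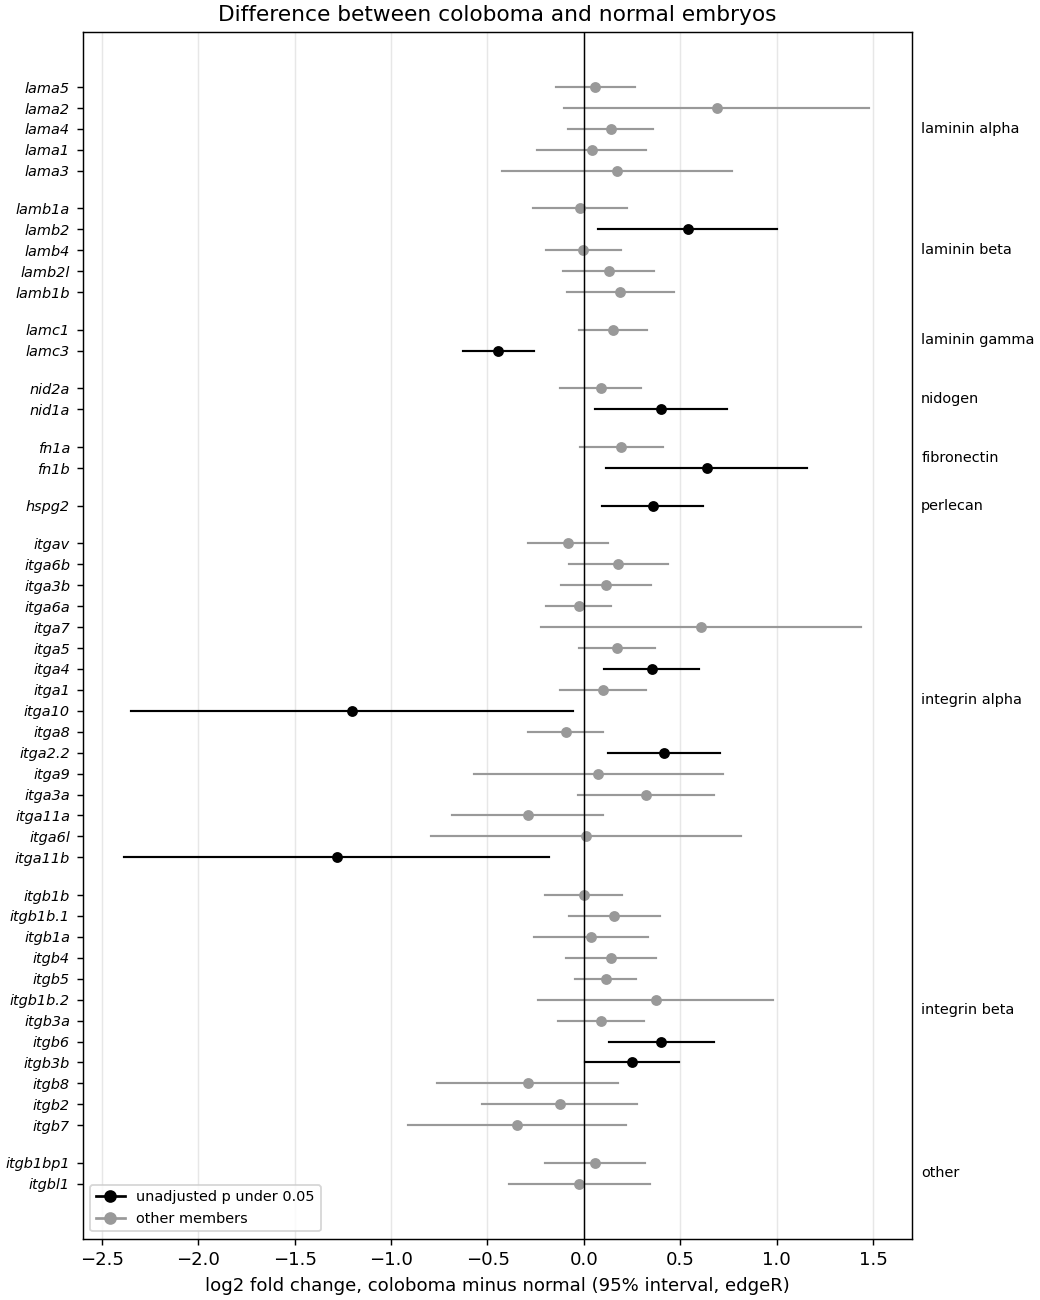
Log2 fold change of the 47 tested genes, coloboma minus normal, with 95% intervals from edgeR, grouped by class. The 11 genes in black have an unadjusted p under 0.05 and none passed after adjustment over all genes, with lamc3 (-0.44) closest.

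The gene nearest to the threshold was lamc3, which encodes the gamma3 chain, the rarer alternative to gamma1 in laminin trimers. It measured 22.9, 24.2, 23.4 and 21.9 CPM in the normal and 15.7, 17.4, 18.98, 15.5 and 17.5 CPM in the coloboma embryos. All 5 coloboma embryos lay below all 4 normal embryos, with no overlap, which held for 2.16% of all genes tested. The log2 fold change was -0.44 ± 0.08 (SE; adjusted p = 0.0705 by edgeR), with a 95% interval of -0.63 to -0.26 (permutation p = 0.00794, exact and two-sided, the smallest that groups of 4 and 5 allow). DESeq2 gave an adjusted p of 0.000232, and leaving out coloboma embryo 5 gave 0.0260 with edgeR. These 2 settings called 574 and 235 of all genes, against 44 in the main test. Over all 19 alternative settings the adjusted p ran from 0.000232 to 0.206 and the log2 value from -0.52 to -0.41. In TPM the groups did not overlap either, and lamc3 made up 7.18% to 7.62% of gamma chain TPM in the normal and 4.28% to 5.66% in the coloboma embryos. Marker lists of 3 tissues had the same order, with all coloboma embryos below all normal ones. The 9 neural and retinal markers summed to 470 to 668 TPM in normal and 386 to 452 TPM in coloboma embryos, with 8 of 9 values negative, and the 8 matched crest and crest mesenchyme markers to 174 to 201 TPM and 143 to 165 TPM, with 6 of 8 negative. The 8 thrombocyte and blood cell markers summed to 80.8 to 90.4 TPM and 71.4 to 80.7 TPM, a narrow margin, with 5 of 8 negative (median -0.07). Over all genes tested 49.9% were negative. The median over all genes was -0.06 with log2(TPM + 1) and -0.08 with log2(TPM + 0.1), so sums in TPM lean towards lower values in coloboma embryos. The part of these 3 tissues in the lamc3 values was not tested, and in whole-embryo RNA fewer cells of a type and less RNA per cell cannot be told apart.

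The other gamma chain, lamc1, had values on the opposite side. It measured 369, 376, 352 and 349.7 CPM in the normal and 438, 399, 394, 414 and 362 CPM in the coloboma embryos, which gave a log2 fold change of 0.15 ± 0.08 (SE; adjusted p = 0.512 by edgeR). The lowest coloboma embryo, number 7, lay within the normal range and the other 4 above it. For the remaining chains of laminin-111 the groups overlapped widely. The alpha1 gene lama1 measured 98.7, 91.1, 91.6 and 65.8 CPM in the normal and 98.7, 96.1, 93.2, 85.9 and 72.7 CPM in the coloboma embryos, and embryo 7 was the lowest of each group. Its log2 fold change of 0.04 ± 0.13 (SE) had a 95% interval of -0.24 to 0.32 (adjusted p = 0.928 by edgeR). For lamb1a the values were 237, 241, 194 and 188 CPM in the normal and 233, 226, 219, 203 and 179 CPM in the coloboma embryos, which gave a log2 value of -0.02 ± 0.11 (SE) with an interval of -0.26 to 0.22 (adjusted p = 0.962 by edgeR). Coloboma embryo 7 had the lowest lamb1a value of the 9. A p above the threshold does not show that levels were equal, and the intervals give the changes that stay compatible with the spread.

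The chains of basement membranes of vessels and epidermis also had overlapping groups. The gene lama5, whose chain is the main alpha chain under epithelia and in the fin fold, measured 250.0, 301, 261 and 295 CPM in the normal and 312, 294, 304, 280.1 and 253 CPM in the coloboma embryos, with a log2 fold change of 0.06 ± 0.09 (SE) and an interval of -0.14 to 0.26. For lama4, the alpha chain of vascular basement membranes, the values were 89.6, 98.3, 92.1 and 89.5 CPM in the normal and 121, 106, 83.8, 101 and 97.2 CPM in the coloboma embryos, at 0.14 ± 0.10 (SE; adjusted p = 0.642 by edgeR). Coloboma embryo 3 had the highest and coloboma embryo 5 the lowest lama4 value of all 9. Among the 8 epidermis and periderm markers 7 had positive values (median 0.16), with sums of 18668 to 22373 TPM in normal and 20962 to 23273 TPM in coloboma embryos. All 6 matched endothelial markers had positive values (median 0.21), with sums of 48.8 to 62.25 TPM and 53.96 to 65.55 TPM. The part of these tissues in the lama5 and lama4 values was not tested. Further beta chains were at -0.00 ± 0.09 (lamb4), 0.13 ± 0.11 (lamb2l) and 0.19 ± 0.13 (lamb1b) on the log2 scale (SE).

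**Figure D3:**
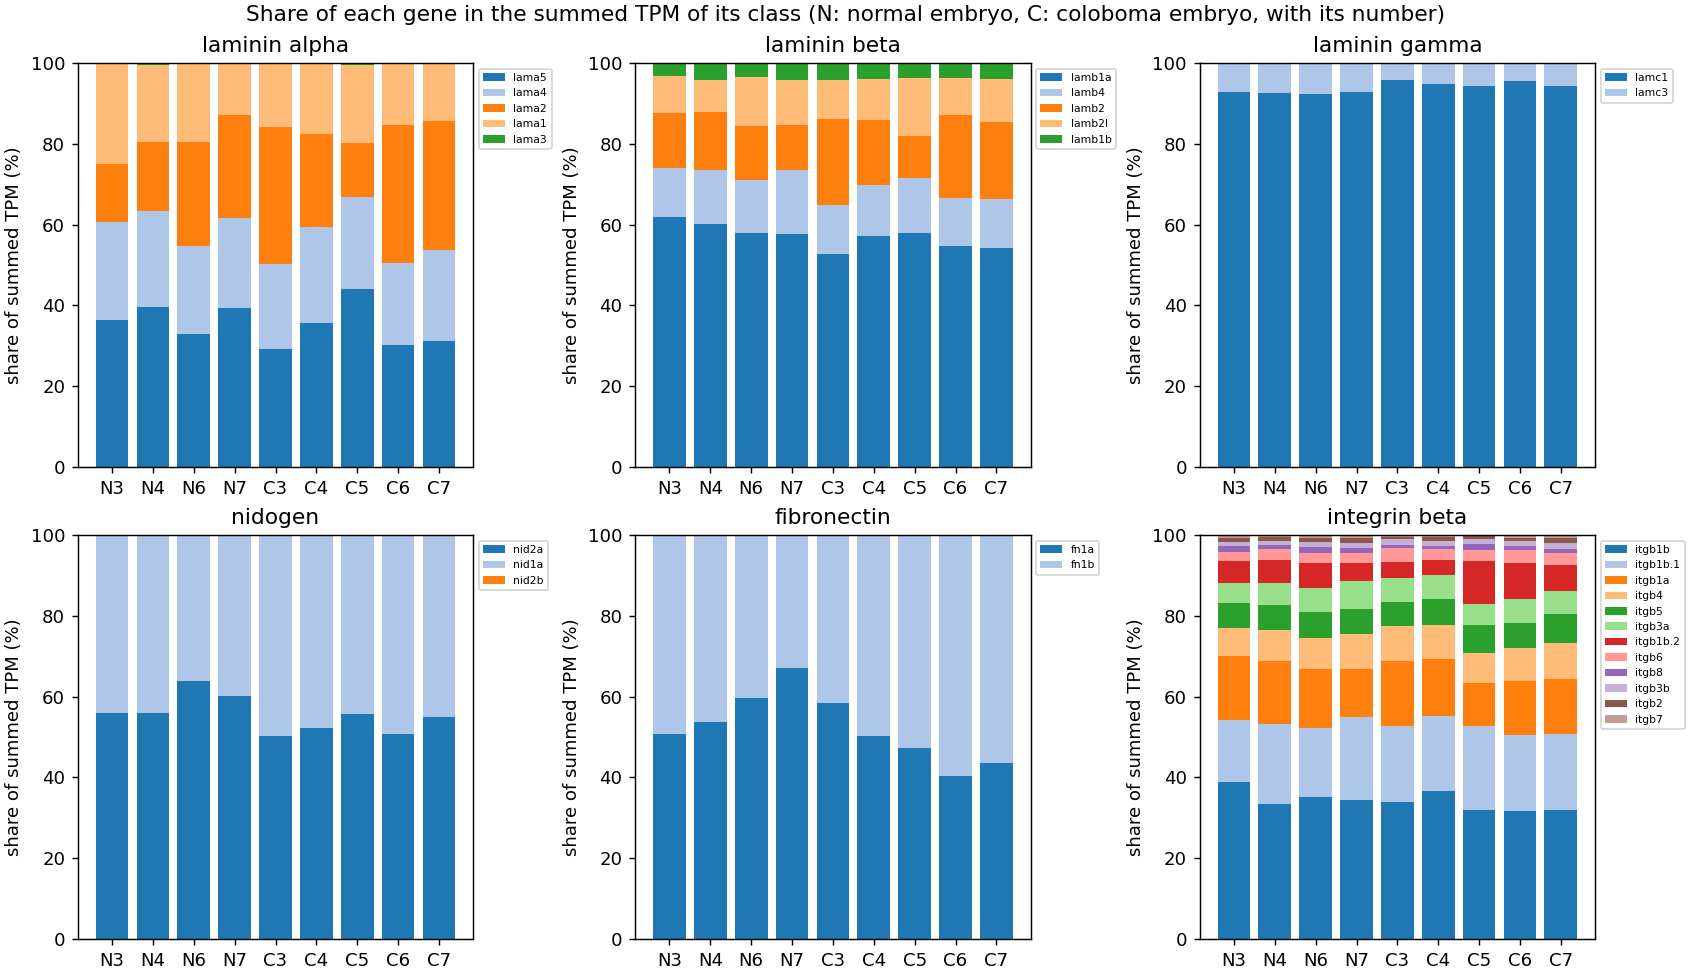
Share of each gene in the summed TPM of its class, per embryo (N, normal; C, coloboma; with the embryo number). The share of lamc3 among gamma chains is 7.18% to 7.62% in normal and 4.28% to 5.66% in coloboma embryos, and that of lama2 among alpha chains runs from 13.3% to 34.2%.

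The alpha2 chain gene lama2, whose chain builds the laminin around muscle fibres and whose loss causes muscular dystrophy in fish and mammals, varied most among the laminins with over 1 TPM. Its values were 29.2, 39.9, 63.2 and 60.1 CPM in the normal and 115, 59.9, 27.4, 102 and 83.1 CPM in the coloboma embryos. Coloboma embryos 3, 6 and 7 were above all others, and coloboma embryo 5 was the lowest of the 9. In log2 terms the difference was 0.69 ± 0.36 (SE), with an interval of -0.11 to 1.48 (adjusted p = 0.498 by edgeR; permutation p = 0.175, exact and two-sided). Its integrin partner in muscle is alpha7, and itga7 measured 8.001, 10.6, 6.45 and 3.74 CPM in the normal and 16.9, 7.06, 4.34, 14.1 and 12.03 CPM in the coloboma embryos. The same 3 coloboma embryos were the highest for itga7, and normal embryo 7 and coloboma embryo 5 were the lowest, at a log2 fold change of 0.61 ± 0.38 (SE; adjusted p = 0.583 by edgeR).

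The beta2 chain gene lamb2, whose chain is found at neuromuscular synapses and in muscle basement membrane, measured 108, 121, 96.04 and 79.7 CPM in the normal and 203, 136, 85.5, 168 and 141 CPM in the coloboma embryos. Coloboma embryos 3, 4, 6 and 7 were above all normal embryos, while coloboma embryo 5 lay among them. Its log2 fold change was 0.54 ± 0.21 (SE; adjusted p = 0.353 by edgeR; permutation p = 0.0952, exact and two-sided). Perlecan (hspg2) had values of 111, 123, 111 and 113 CPM in the normal and 177, 148, 113, 160.3 and 135 CPM in the coloboma embryos, with 4 coloboma embryos above the normal range and embryo 5 within it. For perlecan this gave a log2 fold change of 0.36 ± 0.12 (SE; adjusted p = 0.278 by edgeR; permutation p = 0.0397, exact and two-sided). For nid1a, the nidogen of most basement membranes, the values were 139, 141, 101 and 117 CPM in the normal and 211, 169, 132, 177 and 131 CPM in the coloboma embryos. Embryos 3, 4 and 6 of the coloboma group exceeded all normal embryos and the other two did not, at 0.40 ± 0.16 (SE; adjusted p = 0.349 by edgeR). The related nid2a measured 151, 176, 173 and 169 CPM in the normal and 210.3, 177, 165, 174 and 160.3 CPM in the coloboma embryos with a log2 fold change of 0.09 ± 0.10 (SE) and an interval of -0.12 to 0.30.

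The order of the embryos by skeletal muscle markers was partly that of these genes. The 15 matched markers of fast and slow muscle summed to 24104, 32677, 25740 and 20307 TPM in the normal and 46599, 34741, 28752, 43214 and 46017 TPM in the coloboma embryos. Coloboma embryos 3, 6 and 7, the highest for lama2 and itga7, were also the highest for the markers, and coloboma embryo 5 was the lowest of its group. Other embryos departed from this order. Normal embryo 7 had the lowest marker sum of all, but 60.1 CPM of lama2 against 29.2 CPM in normal embryo 3. Coloboma embryo 7 had a high marker sum, but the lowest nid1a (131 CPM) and nid2a (160.3 CPM) values of its group. All 15 markers had positive log2 values (median 0.71), 1 passed over all genes, and none was at 0 in any embryo. An unadjusted p under 0.05 was found for 13 of them, where 6.78% of all genes tested had such a p with a positive value. The lowest value was that of the slow myosin gene smyhc1, 0.13 (unadjusted p = 0.373 by edgeR). Notochord markers, 9 genes, had positive values too (median 0.22), but none of them had an unadjusted p under 0.05 (edgeR). Their sums were 750 to 1127 TPM in normal and 749 to 1507 TPM in coloboma embryos. Whether the share of muscle or notochord accounts for the values of lama2, lamb2, itga7, hspg2 or nid1a was not tested.

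**Figure D4:**
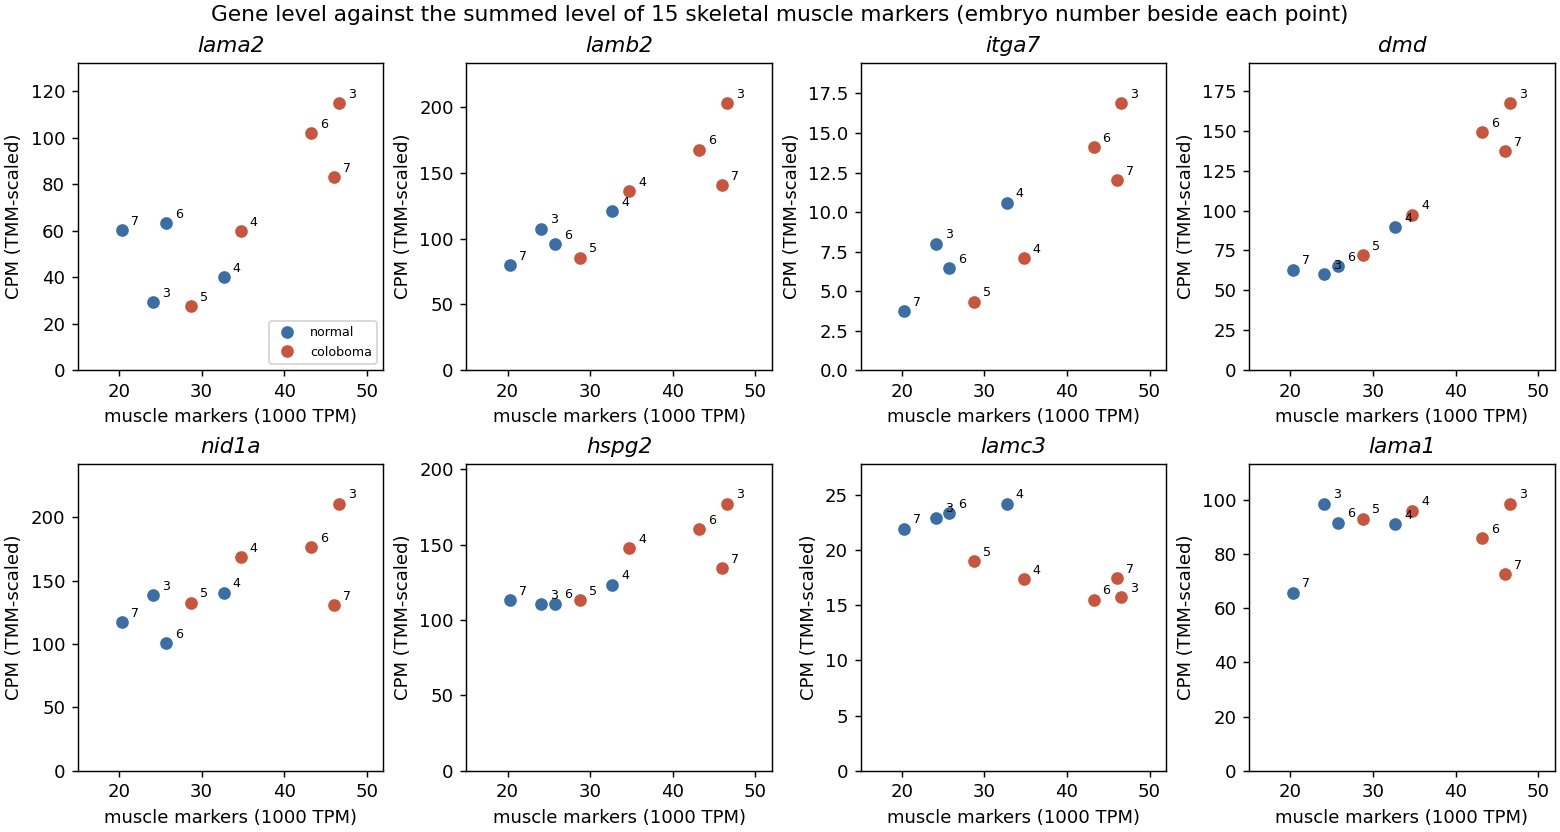
CPM of 8 genes against the summed TPM of 15 skeletal muscle markers in the same embryo, blue for normal and red for coloboma, with embryo numbers. For lama2, lamb2, itga7, dmd, nid1a and hspg2 the highest value lies at coloboma embryo 3. The marker sum of 46599 TPM is also the highest there. For lama1 the value is 98.7 CPM both there and in normal embryo 3, and lamc3 is highest in normal embryo 4 (24.2 CPM). Genes not plotted here, such as lamc1 (438 CPM) and lama5 (312 CPM), were also highest in coloboma embryo 3.

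Fibronectin transcripts had positive values for both genes. The gene fn1b, active in somites and tailbud of the zebrafish embryo, measured 128, 146, 91.1 and 63.2 CPM in the normal and 114, 165, 187, 213 and 154 CPM in the coloboma embryos. Coloboma embryo 3 lay within the normal range and the other 4 above it, while normal embryo 7 was the lowest of all. Its log2 fold change was 0.64 ± 0.24 (SE), with an interval of 0.12 to 1.16 (adjusted p = 0.326 by edgeR; permutation p = 0.0556, exact and two-sided). For fn1a, which is needed for the fusion of the heart primordia in zebrafish and lies on the chromosome that carries zic2a, the values were 144, 176, 148 and 140.1 CPM in the normal and 188, 192, 171, 159.7 and 158 CPM in the coloboma embryos. The groups overlapped through normal embryo 4, at a log2 fold change of 0.20 ± 0.10 (SE; adjusted p = 0.474 by edgeR). The share of fn1b in fibronectin TPM was 42.2% ± 7.17 over the 4 normal and 52.01% ± 7.003 over the 5 coloboma embryos (SD).

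Among the fibronectin receptors, itga5, the alpha chain of the main one, measured 26.9, 33.1, 26.8 and 25.9 CPM in the normal and 34.3, 32.1, 29.97, 31.4 and 30.9 CPM in the coloboma embryos, with all coloboma embryos but number 3 below normal embryo 4 and all above the other normal embryos. Its log2 fold change was 0.17 ± 0.09 (SE; adjusted p = 0.493 by edgeR). The alpha4 gene itga4, which encodes a receptor chain for fibronectin and VCAM1 on blood and muscle precursors, had values of 10.5, 10.4, 11.9 and 13.2 CPM in the normal and 15.3, 16.3, 12.4, 13.8 and 15.8 CPM in the coloboma embryos. Of the coloboma embryos only number 5 was below the highest normal embryo, at a log2 fold change of 0.35 ± 0.11 (SE; adjusted p = 0.246 by edgeR; permutation p = 0.0317, exact and two-sided). The chain gene itgav measured 121, 143, 111 and 132 CPM in the normal and 113, 122, 135, 117 and 113 CPM in the coloboma embryos, an overlap throughout, with -0.08 ± 0.09 (SE) and an interval of -0.29 to 0.13. The beta chains that pair with it differed in sign. The epithelial partner itgb6 measured 8.23, 10.7, 9.41 and 9.54 CPM in the normal and 15.3, 11.4, 10.9, 13.2 and 11.7 CPM in the coloboma embryos, with all coloboma embryos above all normal ones. In TPM the groups overlapped, with coloboma embryo 5 at 5.47 TPM and normal embryo 7 at 5.55 TPM. For this gene the log2 fold change was 0.40 ± 0.12 (SE; adjusted p = 0.226 by edgeR; permutation p = 0.0159, exact and two-sided). Over 19 alternative settings its adjusted p ran from 0.0711 to 0.498. For itgb3b the values were 4.69, 4.71, 4.82 and 5.40 CPM in the normal and 6.49, 5.71, 5.96, 5.12 and 5.91 CPM in the coloboma embryos, which overlapped by coloboma embryo 6 and normal embryo 7 (log2 0.25 ± 0.11, SE; adjusted p = 0.421 by edgeR). The other beta3 gene, itgb3a, had a higher mean over all embryos (12.3 TPM against 2.70 TPM). Its groups overlapped, at 0.09 ± 0.10 (log2, SE; adjusted p = 0.774 by edgeR). Values of itgb5 were 28.8, 31.8, 27.4 and 28.9 CPM in the normal and 32.6, 31.6, 32.5, 29.99 and 31.4 CPM in the coloboma embryos (log2 0.11 ± 0.07, SE; adjusted p = 0.592 by edgeR). The chain gene itgb8, whose product pairs with alphav, was on the other side, with 5.47, 4.25, 4.28 and 3.78 CPM in the normal and 2.74, 2.91, 5.57, 4.004 and 3.10 CPM in the coloboma embryos and the groups overlapping (log2 -0.29 ± 0.21, SE; adjusted p = 0.649 by edgeR).

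Collagen-binding alpha chains differed in direction from each other. An alpha2 gene, itga2.2, measured 11.2, 12.5, 8.49 and 11.3 CPM in the normal and 13.7, 15.1, 17.7, 12.7 and 13.5 CPM in the coloboma embryos. For itga2.2 all coloboma embryos lay above all normal ones, at a log2 fold change of 0.42 ± 0.13 (SE; adjusted p = 0.248 by edgeR; permutation p = 0.0159, exact and two-sided). Together with itgb6 it made 2 genes (4.26% of the 47) whose coloboma values were all higher, which held for 2.27% of all genes tested. The alpha1 gene itga1 was at 0.10 ± 0.10 (log2, SE) and the alpha11 gene itga11a at -0.29 ± 0.18. Its paralog itga11b had only 25, 29, 38 and 26 counts in the normal and 16, 13, 0, 10 and 15 counts in the coloboma embryos, or 0.575, 0.703, 0.658 and 0.531 CPM in the normal and 0.540, 0.252, 0, 0.174 and 0.266 CPM in the coloboma embryos. Coloboma embryo 3 lay between normal embryos 7 and 3 and the other 4 below all normal embryos. The log2 fold change was -1.28 ± 0.50 (SE; adjusted p = 0.349 by edgeR; permutation p = 0.0238, exact and two-sided), with counts this low behind it.

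The alpha10 gene itga10, a collagen receptor chain of cartilage in mammals, had values at 2 levels that followed the groups only in part. It measured 22.97, 24.99, 26.9 and 6.11 CPM in the normal and 22.8, 5.67, 4.93, 5.22 and 5.71 CPM in the coloboma embryos. Normal embryos 3, 4 and 6 and coloboma embryo 3 were at 22.8 to 26.9 CPM, and normal embryo 7 and the other 4 coloboma embryos at 4.93 to 6.11 CPM, with none between. The log2 fold change of -1.20 ± 0.52 (SE; adjusted p = 0.409 by edgeR; permutation p = 0.0556, exact and two-sided) had an interval of -2.35 to -0.05. Without coloboma embryo 3 the log2 value was -1.91. Leaving out any other single embryo gave -1.50 (without normal embryo 7) to -1.04 (without normal embryo 6). Over 19 alternative settings its adjusted p ran from 0.104 to 0.6805. The labels name nothing that separates these embryos.

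**Figure D5:**
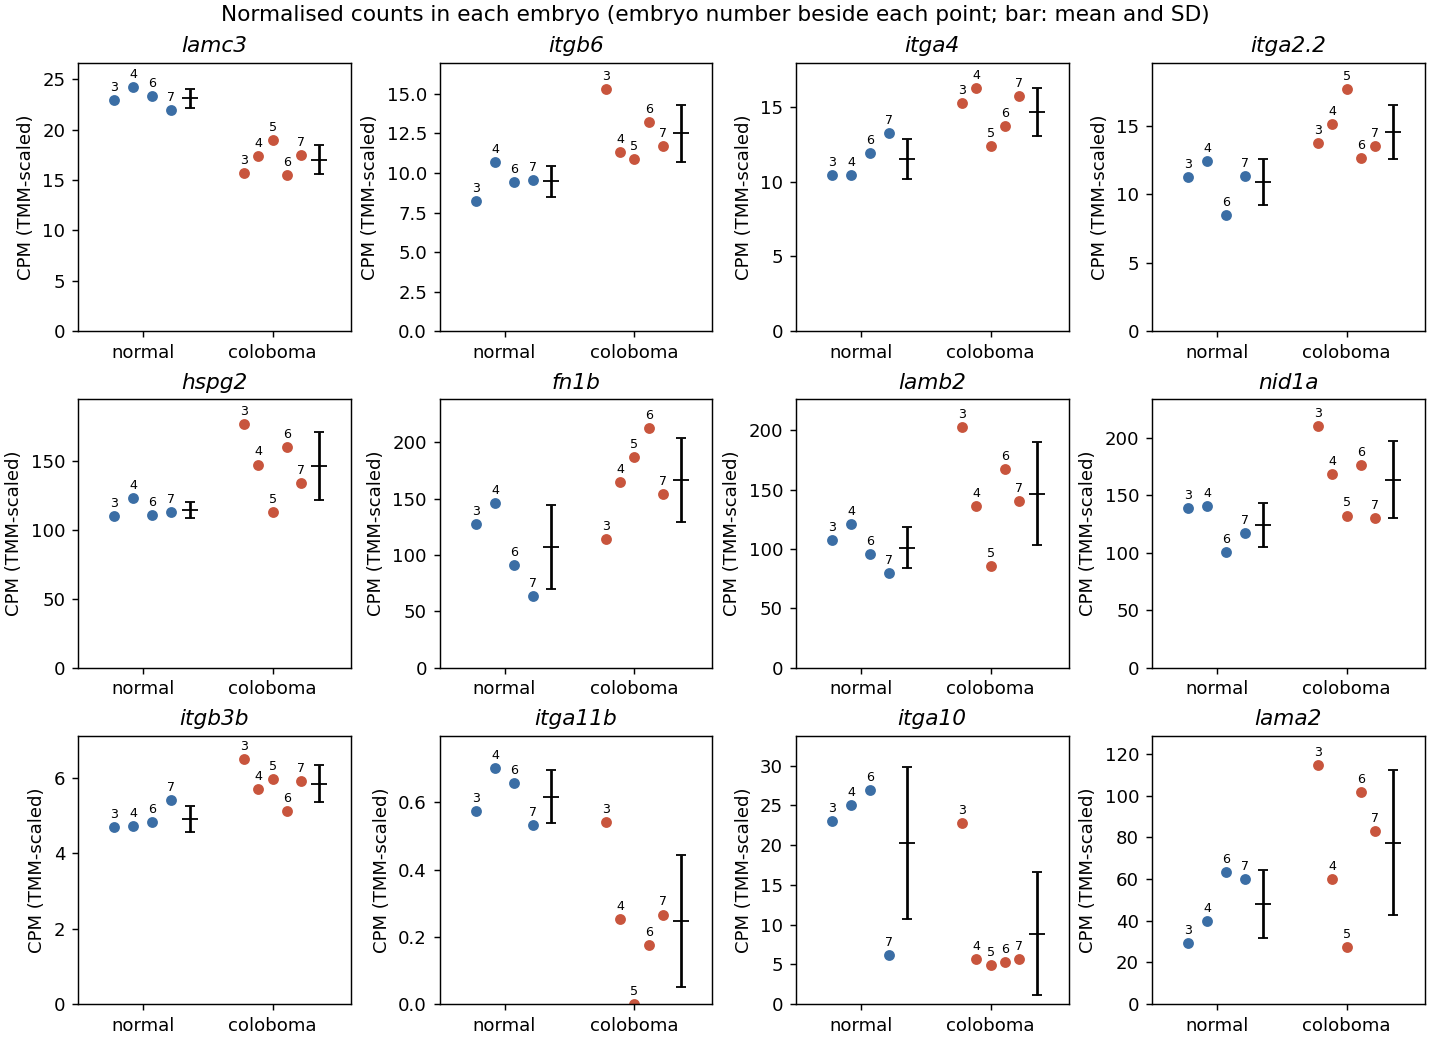
CPM in each embryo for the 11 genes with an unadjusted p under 0.05 and for lama2, with the embryo number at each point and the mean and SD at the side. The groups do not overlap for lamc3, itgb6 and itga2.2, and itga10 lies at 2 levels, each with embryos of both groups.

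The genes of beta1 integrins, the partners of most alpha chains, had overlapping groups and none passed the adjusted test. The gene itgb1b measured 82.4, 75.1, 69.2 and 71.3 CPM in the normal and 81.8, 82.4, 71.1, 70.8 and 66.3 CPM in the coloboma embryos, which gave a log2 value of -0.00 ± 0.09 (SE) with an interval of -0.20 to 0.20. For itgb1b.1 the values were 54.2, 73.6, 55.5 and 70.6 CPM in the normal and 75.1, 69.1, 76.2, 69.3 and 64.5 CPM in the coloboma embryos, at 0.16 ± 0.11 (SE; adjusted p = 0.620 by edgeR). The neighbouring itgb1b.2 was more variable, with 17.2, 18.8, 18.3 and 13.8 CPM in the normal and 14.6, 12.1, 35.1, 29.2 and 19.6 CPM in the coloboma embryos. For it coloboma embryos 5, 6 and 7 were above all normal embryos and embryo 4 below them (log2 0.37 ± 0.28, SE), with a wide interval of -0.24 to 0.98. A further beta1 gene, itgb1a, was at 0.04 ± 0.14 (log2, SE), with an interval of -0.26 to 0.33. Laminin receptor chains of epithelia, itga6b and itgb4, which pair in hemidesmosomes, had log2 fold changes of 0.18 ± 0.12 (SE) and 0.14 ± 0.11 (SE). Values of itga6b were 54.9, 65.5, 51.4 and 71.3 CPM in the normal and 75.02, 67.8, 78.4, 62.5 and 60.6 CPM in the coloboma embryos, with most embryos overlapping. Leukocyte chains had negative values that did not pass, itgb2 at -0.13 ± 0.18 (SE) and itgb7 at -0.35 ± 0.26 (SE). The thrombocyte and blood cell markers, given beside lamc3, had a lower summed TPM in all coloboma embryos than in all normal ones, and none was at 0. The margin was narrow, with at most 80.69 TPM in the coloboma and at least 80.8 TPM in the normal embryos. Of the 8 markers 5 had negative and 3 positive log2 values (median -0.07), and 1 had an unadjusted p under 0.05 (edgeR). Their part in the values of itgb2 and itgb7 was not tested. The integrin tail-binding gene itgb1bp1 measured 10.2, 12.6, 9.51 and 10.1 CPM in the normal and 9.36, 11.1, 10.8, 12.9 and 10.8 CPM in the coloboma embryos, at 0.06 ± 0.12 (SE). For itgbl1, the secreted protein, values were 4.71, 5.46, 4.90 and 5.19 CPM in the normal and 7.06, 4.99, 4.39, 4.61 and 3.94 CPM in the coloboma embryos, at -0.02 ± 0.17 (SE).

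On the chromosome that carries zic2a, 3.16% of the 602 placed genes passed the adjusted test (19 genes). In the reference annotation 7 of the 47 tested genes lie there, namely fn1a, itga4, itgav, itga6a, itgb5, itgb2 and itgbl1. None of the 7 passed, 3 had positive and 4 negative values, and their median was -0.02, with itga4 the only member with an unadjusted p under 0.05. Of the targeted genes, zic2a measured 47.8 ± 4.86 CPM (SD, 4 normal embryos) and 51.7 ± 6.62 CPM (SD, 5 coloboma embryos). For zic2b the values were 48.7 ± 4.15 and 47.7 ± 1.21 CPM, with no genotype against which to set them.

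Further genes of the basement membrane and of the link from integrins to actin and dystrophin were measured as a list of 61, of which 52 were matched. None passed the adjusted test with edgeR, and 13 had an unadjusted p under 0.05, all with positive values, where 6.78% of all genes tested had such a p with a positive value. Positive log2 values were found for 43 of the 52 and the median was 0.13, against 0.00 over all genes. This split is by TMM-scaled counts and was not counted on other scales. Some genes with positive values, such as col4a6, sdc4 and bcam, had a lower mean TPM in the coloboma than in the normal embryos. The collagen IV chain genes col4a1 and col4a2, which lie side by side on the chromosome that carries zic2a, led the list. Collagen IV forms the network that nidogen and perlecan tie to laminin. Its other chain genes were at -0.09 ± 0.08 (col4a5), 0.02 ± 0.11 (col4a6), -0.14 ± 0.11 (col4a4) and 0.08 ± 0.10 (col4a3) (log2, SE). Mean TPM was 129 for col4a5 and 60.0 for col4a6, against 12.8 for col4a1 and 10.9 for col4a2. In TPM all coloboma embryos lay below all normal ones for col4a5. The col4a1 values were 30.5, 39.5, 36.9 and 40.7 CPM in the normal and 67.8, 61.8, 43.4, 59.05 and 50.7 CPM in the coloboma embryos (log2 0.62 ± 0.13, SE; adjusted p = 0.122 by edgeR). Those of col4a2 were 42.4, 54.4, 47.5 and 52.01 CPM in the normal and 73.6, 70.96, 55.99, 67.02 and 63.1 CPM in the coloboma embryos (log2 0.43 ± 0.10, SE; adjusted p = 0.143 by edgeR), with all coloboma embryos above all normal ones in CPM but not in TPM. Dystrophin (dmd), which holds the laminin receptor dystroglycan to actin in muscle, measured 59.9, 89.5, 65.1 and 62.8 CPM in the normal and 167, 97.4, 72.01, 149 and 137 CPM in the coloboma embryos (log2 0.85 ± 0.23, SE; adjusted p = 0.173 by edgeR). In CPM this was nearly the order of the muscle markers. In TPM, the unit of the marker sums, the groups did not overlap for dmd. It had 28.3 to 31.6 TPM in the normal and 43.6, 37.2, 42.0, 43.3 and 45.7 TPM in the coloboma embryos. There coloboma embryo 4, and not embryo 5, was the lowest of its group. The focal adhesion gene zyx was at 0.34 ± 0.09 (SE), the kindlin gene fermt1 of epithelia at 0.30 ± 0.09 (SE) and the sarcoglycan gene sgcb at 0.38 ± 0.12 (SE), with edgeR adjusted p of 0.173, 0.245 and 0.246. DESeq2 called 4 of the list (col4a1, col4a2, dmd and zyx), and edgeR without coloboma embryo 5, the shallowest library, called 3 (col4a1, col4a2 and dmd). All were higher in the coloboma embryos. Over all genes DESeq2 called 574 of 21293, and edgeR without coloboma embryo 5 called 235 of 21273, against 44 in the main test.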

How the data were processed

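RNA of 9 single embryos was sequenced after library preparation with a TruSeq RNA v2 kit, per the labels' protocols. The submitters' processing notes list Zv9 as the build and, among the tools, RSEM 1.2.18, Bowtie 1.1.1 and CASAVA 1.8.2. For the gene annotation no name is given in the sources used here. Deposited counts are whole numbers and were treated as RSEM expected counts rounded by the authors. The TPM values deposited by the authors cover the same genes.

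Counts were tested with edgeR 4.0.16 (R 4.3.3): filterByExpr (minimum count 10), TMM scaling, a quasi-likelihood test of coloboma against normal with no covariate, and Benjamini-Hochberg adjustment over 21293 genes. CPM are TMM-scaled, and SE and 95% intervals come from the fold change and F value. Exact permutation tests used the absolute difference of mean CPM over every split of the embryos. Pairs of embryos within a group all differed beyond sampling noise. The labels do not say whether embryos share a clutch, so p-values measure the spread between these embryos. Depth sets the precision, and the shallowest library was coloboma embryo 5.

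The genes, lists and tests were chosen with earlier results of these data known. Values are given embryo by embryo for genes past the threshold, those with an unadjusted p under 0.05, the 2 highest in TPM of each class, and chains with known roles in eye, notochord or muscle (nid1b among them was not matched to a symbol). Up to 6 partner genes with the smallest p were named. Of 135 list entries, 123 were matched. Alternatives were other scalings, filters and tests (DESeq2 1.42.0, limma 3.58.1), log2(TPM + 1), log2(TPM + 0.1), a block on embryo number, a threshold of 0.1, and leaving out each embryo. The fits were tested on simulated data. Chromosomes and neighbours came from RefSeq (GRCz12tu) by symbol.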

Additional observations from a re-analysis of the deposited data

Results flagged for a closer look

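Each gene was examined in each group for an embryo that lay apart (the gap to the nearest embryo over the range of the group, against Dixon's 95% critical value), in 96 sets of values, of which chance alone would set apart about 1 in 20. There were 3 such embryos. Coloboma embryo 3 had 22.8 CPM of itga10, against 4.93 to 5.71 CPM in the other 4 coloboma embryos. Coloboma embryo 5 had 10.6 CPM of itga3a, an alpha chain of laminin receptors, against 6.56 to 7.03 CPM in the others. Normal embryo 4 had 33.1 CPM of itga5, against 25.9 to 26.9 CPM in the other normal embryos.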

How the results depend on the processing

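Of the 47 tested genes, 35 kept the sign of their log2 fold change in all alternatives run, and the 12 that did not had main values of at most 0.09 in size. No gene of the 47 passed in the main test, and 1, lamc3, passed with DESeq2 (log2 value -0.44), without coloboma embryo 5 (-0.48) and at an adjusted p of 0.1 in place of 0.05 (1 gene). Leaving out single embryos gave 0 to 1 genes of the 47, 0 to 3 of the partner list and 21 to 235 of all genes. The highest counts came without coloboma embryo 5 (235 genes, 165 higher and 70 lower) and the lowest of all genes, 21, without normal embryo 3 or coloboma embryo 4; 25 and 27 were left without normal embryos 6 and 7. All genes past the threshold numbered 574 with DESeq2 (366 higher, 208 lower), against 17 higher and 27 lower in the main test, 45 with library size alone (12 higher, 33 lower) and 86 at an adjusted p of 0.1. Of the partner list 4 passed with DESeq2. The cause of these differences was not tested. A replicate block on embryo number gave 17 of all genes, 0 of the 47 and 0 partners. The numbers share no stated clutch or day, and the correlations of deviations in same-numbered embryos ran from -0.07 to 0.07. These correlations cannot show whether same-numbered embryos shared a clutch or day. As no pairing is stated, none was used in the main test. The median log2 change of the 47 genes was 0.11 in the main test and 0.02 to 0.16 elsewhere, lowest with log2(TPM + 1). With that setting the median over all genes was -0.06, against 0.0007 in the main test. Depth limits itga11b, itga6l, lama3 and nid2b, all with at most 72 counts in any embryo.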

Other observations

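The tables hold 8 further symbols of these families that are spelled in capitals and so fell outside the selection. The one with the smallest p was ITGB1BP2, whose mammalian product melusin is a muscle protein that binds the beta1 integrin tail. It had 924, 1181, 1151 and 1054 counts in the normal and 1206, 1613, 465, 2028 and 1890 counts in the coloboma embryos, a log2 difference of 0.52 ± 0.16 (SE; adjusted p = 0.222 by edgeR). The nidogen entry NID1 (1 of 2) was at -0.22 ± 0.13 (log2, SE). The alpha2 integrin entry ITGA2 (2 of 2) was at 0.43 ± 0.31 (log2, SE), and its groups overlapped in CPM and TPM. Its mean over all embryos was 13.9 TPM, against 5.26 TPM for itga2.2. The leukocyte integrin entry ITGAL was at -0.12 ± 0.15 and ITGAX at 0.35 ± 0.17 (log2, SE). None of the 8 passed over all genes (edgeR, Benjamini-Hochberg). The choice of these entries was made with their values in view.

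The median coefficient of variation of CPM over the tested genes of these families was 12.3% in normal and 12.1% in coloboma embryos, against 14.0% and 15.1% over all genes tested. Among steady genes were lamc1 (3.58% and 6.91%) and itgb5 (6.25% and 3.29%), while itga10 (47.2% and 87.9%) and itga7 (39.9% and 47.1%) were among the most variable.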
